A study of Mus musculus with 42 samples.

Results

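Late changes in differentiating mouse embryonic stem cells were measured by comparing the 4 libraries taken at 84 h and 90 h (the early window) with the 4 libraries taken at 114 h and 120 h (the late window). These are 8 of the 42 poly-A RNA-seq libraries of a time course sampled every 6 h for 120 h. Libraries were put in a window by their time labels, but the windows were chosen with earlier results of these data known. All 14296 genes in the files were compared. Each time point held 1 library of culture A and 1 of culture B, which the series describes as biological duplicates. The cells in all groups were the W9.5 embryonic stem cell line, on a 129X1/SvJ strain background and at low passage, left to differentiate without a directing signal into embryoid bodies after leukaemia inhibitory factor (LIF) was withdrawn. Both windows therefore share the line, its genotype and the withdrawal of LIF, and differ in hours of differentiation. They rest on 1 line and 2 cultures, and the labels name no cell types within the bodies.

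An embryoid body is a free aggregate in which stem cells leave the naive state, pass through a formative or primed state like that of the epiblast, and give rise to precursors of ectoderm, mesoderm and endoderm beside extraembryonic-like cells. Naive cells are held by factors such as Klf4 and Esrrb and by LIF, while Pou5f1, Sox2 and Nanog serve both naive and primed cells. Wnt, BMP, Nodal and FGF ligands secreted within the aggregate direct these choices.

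The 8 libraries held between 21465541 and 36064383 counted reads, from 25686013 to 36064383 in the early window and from 21465541 to 25960877 in the late window. Values are log2 CPM, the counted reads of a gene scaled to a common library size, with a small offset, as made by the authors, so that a difference of 1 is a 2-fold difference. Across genes, which are not independent replicates, Pearson's r between 2 libraries was 0.979 to 0.991 within the early window, 0.982 to 0.989 within the late window and 0.947 to 0.965 between the windows. The libraries are of whole cultures, so fewer cells of a type and less RNA per cell cannot be told apart anywhere in what follows. The defining gene Pou5f1 stood between 9.12 and 9.43 log2 CPM in the early libraries and between 8.59 and 8.93 in the late libraries, so this gene was abundant in both windows.

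Between the windows 1946 of 14296 genes passed an adjusted p of 0.0001 (limma, Benjamini-Hochberg), 1104 higher and 842 lower in the late window. These are 13.6% of the genes tested, 7.72% higher and 5.89% lower, and each list of genes below is set beside these shares. The lists were chosen with earlier results of these data known, so a higher share in a list is a description and not a test. The difference was at least 2-fold for 936 genes, and at least 8-fold for 65 genes that rose and 15 that fell. For 1919 of the 1946 genes the early and late libraries did not overlap, against 36.8% of all genes tested. All 1946 differences had the same sign in culture A and in culture B. The genes were called on the mean of both cultures, so a shared sign was largely built in.

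Among the largest rises, Anxa1, which codes for a calcium-dependent membrane-binding annexin, stood at −0.95, −0.62, −0.57 and −1.03 log2 CPM in the early libraries (84 h A, 84 h B, 90 h A and 90 h B, the order used throughout) and at 4.89, 5.19, 4.93 and 4.98 in the late libraries (114 h A, 114 h B, 120 h A and 120 h B). Its difference was 5.79 ± 0.19 on the log2 scale (SE, limma adjusted p = 8.294e-19). Igf2, an imprinted growth factor, went from 3.87, 3.73, 4.77 and 4.82 to 9.55, 9.41, 9.14 and 9.24, a rise of 5.04 ± 0.15 (limma adjusted p = 1.454e-19). Both genes had windows far apart, and in Igf2 the 90 h libraries lay above the 84 h libraries. Windows without overlap were a condition for the 12 largest rises and the 12 largest falls. The small heat shock protein gene Cryab rose by 5.78 ± 0.20, the nuclear receptor gene Nr2f2 by 5.45 ± 0.61 and the membrane protein gene Emp1 by 4.79 ± 0.30. The muscle and filament genes Synpo2l (5.39 ± 0.30), Acta2 (5.15 ± 0.56) and Tnnt3 (5.09 ± 0.74) and the mesothelial surface gene Msln (5.53 ± 0.52) were also among the 12 largest rises. Ccdc80 (6.72 ± 0.71) and Postn (6.19 ± 0.67), both coding for secreted matrix proteins and both among the 12, had 0 to 4 reads in each early library, Tnnt3 had 1 to 4 and Msln 2 to 6, so the fitted size of these rises depends on the offset. The late libraries held 93 to 148 reads of Ccdc80.

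The largest falls were smaller. Enpp2, the gene of the secreted enzyme autotaxin, stood at 6.05, 6.30, 6.14 and 6.09 log2 CPM early and at 2.94, 2.81, 2.99 and 2.68 late, a fall of 3.29 on the log2 scale (SE 0.12, limma adjusted p = 1.518e-17). The values within a window differed by less than 0.4, and the windows were well apart. Irs4, an adaptor of insulin receptor signalling, had a difference of −3.14 ± 0.19, the guidance ligand gene Sema5a −2.90 ± 0.19, the hormone gene Stc1 −3.24 ± 0.40 and the protocadherin-like Fat3 −2.91 ± 0.38. Genes best known from neurons were among them, with Sncb (synuclein beta) at −3.26 ± 0.20, Nell2 at −3.52 ± 0.27 and Rgs7bp at −3.10 ± 0.41. The anchoring protein gene Sphkap (−3.66 ± 0.45), Klhl14 (−3.32 ± 0.41), the deglycating kinase gene Fn3k (−3.05 ± 0.32) and the noncoding gene C130071C03Rik (−3.19 ± 0.43) complete the 12.

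**Figure D1:**
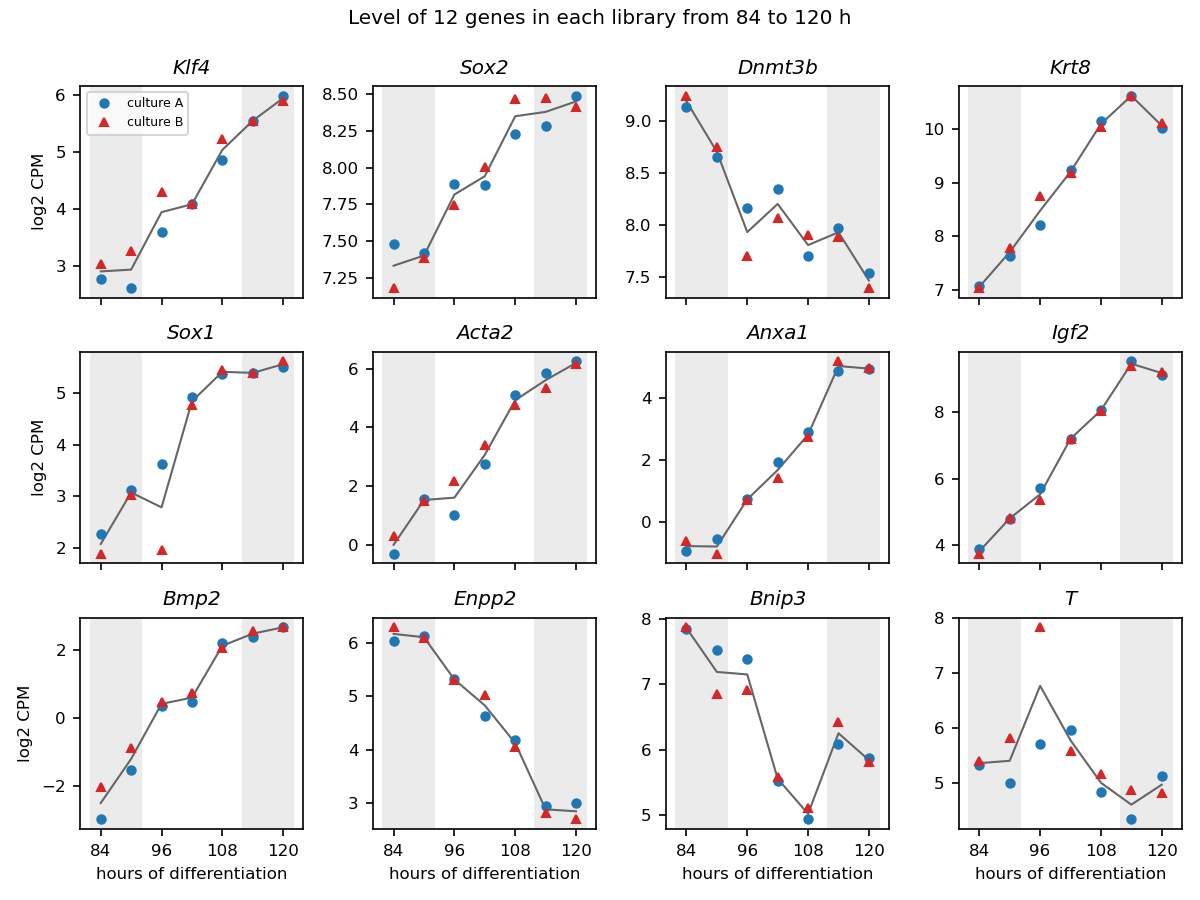
Log2 CPM of 12 genes against hours of differentiation from 84 h to 120 h. Circles are culture A, triangles are culture B, the line joins their mean, and grey bands mark the early and late windows. Anxa1 stays below 0 at 84 h and 90 h and lies near 5 at 114 h and 120 h, while T overlaps between the windows and its culture B library is high at 96 h.

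Of 16 genes of the naive pluripotent state, 12 rose and 0 fell, with a median difference of 1.93 on the log2 scale beside −0.0048 over all genes tested. Klf4, a core naive transcription factor, stood at 2.79, 3.04, 2.62 and 3.26 log2 CPM early and at 5.55, 5.55, 5.99 and 5.90 late, a rise of 2.82 ± 0.15 (limma adjusted p = 1.456e-14). Esrrb, an orphan nuclear receptor of naive cells, went from 5.11, 5.24, 5.09 and 5.67 to 7.32, 7.54, 7.72 and 7.71. For both, every late library was above every early one. Dppa3 (Stella), a maternal and germ cell factor, rose by 3.68 ± 0.27, the germ cell regulator Prdm14 by 2.87 ± 0.16 and the Akt coactivator gene Tcl1 by 2.72 ± 0.19. Nanog, in contrast, was at 8.37 to 8.59 early and 8.40 to 8.78 late, a difference of 0.07 ± 0.09 that did not pass (limma adjusted p = 0.5123) and had the opposite sign after quantile normalization (−0.027).

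The summed level of the 16 naive genes was between 656.8 and 780.8 CPM in the early libraries and between 1343 and 1558 CPM in the late libraries. At 0 h all 16 were above their early window level, and for 15 of 16 the late window lay nearer to the 0 h level than the early window did, beside 49.7% of all genes tested. Klf4 averaged 8.43 log2 CPM at 0 h, so its late level was still below where it began. Of 11 general pluripotency genes only Sox2 rose, from between 7.18 and 7.49 to between 8.28 and 8.49, a difference of 1.04 ± 0.07. Pou5f1 had a difference of −0.55 ± 0.12 that did not pass (limma adjusted p = 0.0008278).

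Of 12 measured genes of the formative and primed epiblast 6 fell, 0 rose and 6 did not pass, with a median difference of −0.59. Dnmt3b, the de novo DNA methyltransferase that marks this state, stood at 9.14, 9.24, 8.65 and 8.75 log2 CPM early and at 7.97, 7.88, 7.54 and 7.39 late, a difference of −1.25 ± 0.08. Every late library lay below every early one, and the 120 h libraries lay below the 114 h libraries. The kinase gene Pim2 had a difference of −1.20 ± 0.09, and the transcription factor genes Sox3, Zic2 and Otx2 had differences of −1.25 ± 0.17, −0.84 ± 0.09 and −0.82 ± 0.12. Fgf5, the classical ligand of the primed epiblast, was at 6.26 to 6.57 early and 6.20 to 6.99 late and did not pass (0.17 ± 0.12, limma adjusted p = 0.2879).

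**Figure D2:**
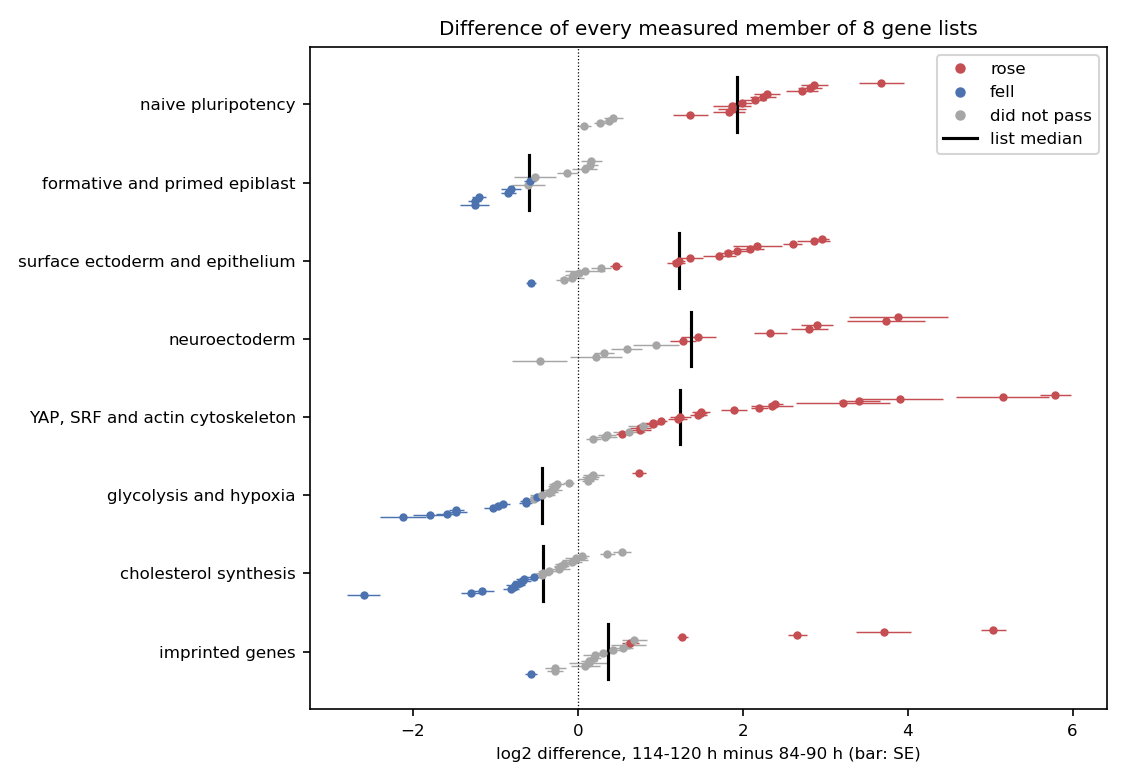
Log2 difference between the late and early windows of every measured member of 8 gene lists, with its SE as a bar. Red members rose, blue members fell and grey members did not pass, and the black stroke is the median of the list. The naive list has its median at 1.93 and the formative list at −0.59.

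The primitive streak list, the genes of the first mesoderm and endoderm precursors, had 0 of 11 measured members past the threshold in either direction, with a median of −0.09 and 2 members at an unadjusted p under 0.05. T (brachyury) stood at 5.32, 5.39, 4.99 and 5.81 log2 CPM early and at 4.33, 4.87, 5.12 and 4.81 late, and the windows overlapped (−0.59 ± 0.32, limma adjusted p = 0.1319). Mixl1 (−0.45 ± 0.38) and Eomes (−0.75 ± 0.25, limma adjusted p = 0.0168) did not pass. With voom precision weights 1 member of the list fell. T at 96 h, between the windows, was 5.69 in culture A and 7.83 in culture B.

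Derivatives of mesoderm and endoderm gave short lists of calls. Of 12 measured genes of blood and endothelium 3 rose and 1 fell. Runx1, the factor of definitive blood, rose from between −0.31 and 0.33 log2 CPM to between 2.42 and 2.99, and the endothelial adhesion gene Pecam1, which stem cells also express, rose by 1.40 ± 0.11. Kdr, the VEGF receptor of blood and endothelial precursors, went from −0.38, −0.39, −0.28 and 0.17 to 2.15, 2.88, 2.58 and 2.15 (2.66 ± 0.49, limma adjusted p = 8.205e-05). The windows of Kdr did not overlap, but its call was lost on leaving out any 1 of the 8 libraries, with a highest limma adjusted p of 0.00093. Cd34 fell by 1.20 on the log2 scale and the blood factor Tal1 did not pass (−0.86 ± 0.40).

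Of 10 measured genes of lateral and cardiac mesoderm 1 rose, Bmp4 (2 rose with voom precision weights). The median of this list was 0.90, with 6 of the 10 differences positive. Hand1, at −0.98 to 0.75 early and 1.41 to 2.17 late, did not pass at 1.99 ± 0.49 (limma adjusted p = 0.001711). Of 6 measured genes of paraxial mesoderm, with a median of −0.34, the Notch modifier Lfng rose (1.20 ± 0.15) and the Notch ligand Dll1 fell (−0.88 ± 0.10). Among 13 measured Hox, Cdx and cofactor genes of 62 listed, 1 rose, the cofactor Meis1 (2 rose with voom precision weights). Their median was 0.76, and Cdx2 did not pass (0.76 ± 0.51). The definitive endoderm list had 0 of 8 members higher and 1 lower, which was Otx2 of the primed list, and Foxa2, at −0.57 to −0.01 early and −0.64 to 0.41 late, did not pass. Sox17 was not analysed here.

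Extraembryonic endoderm, the yolk sac lineage, had 7 of 17 measured members higher and 0 lower, with a median of 0.85. Cited1, a transcriptional coregulator, rose from between 0.08 and 0.60 to between 3.33 and 4.82 log2 CPM, and Sox7 rose by 2.60 ± 0.24. The defining factors Gata4 (−0.07 ± 0.18) and Gata6 (0.88 ± 0.49) did not pass. Gata4 was at 2.62 to 3.20 early and 2.62 to 3.08 late. The other members that rose were Dab2, Rhox5 and the basement membrane genes Sparc, Col4a1 and Col4a2, which other cell types also express. The calls of Dab2 and Rhox5 were lost without the 84 h A, 90 h B, 114 h A or 120 h B library, and that of Dab2 also without 90 h A or 120 h A, with highest limma adjusted p-values of 0.00118 and 0.000312.

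Of 12 measured neuroectoderm genes, among 24 listed, 7 rose, 0 fell and 5 did not pass, with a median of 1.37. The files hold only genes above 1 CPM in at least 2 samples, so some members may be measured only because they were high late. En1 (mean −1.69 log2 CPM early, 2.04 late) and Pax3 (−2.05 and 1.84) were below 1 CPM early. This limits the share and median here and in other lists with members not measured. Sox1, the earliest neural plate factor, stood at 2.27, 1.89, 3.12 and 3.04 log2 CPM early and at 5.39, 5.40, 5.51 and 5.62 late, a rise of 2.90 ± 0.19 (limma adjusted p = 2.122e-12). The late libraries lay within 0.23 of each other. The midbrain-hindbrain factor En1 rose by 3.73 ± 0.47, Sox21 by 2.81 ± 0.22, the forebrain and eye factor Lhx2 by 2.33 ± 0.20, and Pax3, a factor of the dorsal neural tube and neural crest, by 3.88 ± 0.60. Pax3 missed the threshold without the 114 h B library (limma adjusted p = 0.000101). Pax6, at −0.45 to 0.09 early and 0.41 to 0.98 late, had no overlap and did not pass (0.95 ± 0.28, limma adjusted p = 0.007313). Of 9 neural crest genes 3 rose, and 1 rose without the 114 h B library.

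The list of surface ectoderm and epithelium had 12 of 19 measured members higher and 1 lower, with a median of 1.23. Krt8 and Krt18, the keratin pair of simple epithelia, were already abundant in the early window and rose further. Krt8 stood at 7.07, 7.04, 7.63 and 7.78 log2 CPM early and at 10.62, 10.62, 10.01 and 10.11 late, a rise of 2.96 ± 0.09 (limma adjusted p = 1.454e-19), and Krt18 rose by 2.60 ± 0.12. Both were higher at 90 h than at 84 h and lower at 120 h than at 114 h. Krt7 rose by 2.86 ± 0.20, Krt17, a keratin of basal and stressed epithelium, by 2.17 ± 0.30, and Tfap2c, a factor shared by surface ectoderm, trophoblast and germ cells, by 2.09 ± 0.17. Esrp1, an epithelial splicing regulator, fell by 0.57 on the log2 scale. Krt14 and Trp63 of stratified epidermis were not analysed here. Of 10 measured trophoblast genes 4 rose and 0 fell, with a median of 1.89. Those that rose were Tfap2c and Krt7 again with Tead4 (2.05 ± 0.15) and the X-linked homeobox gene Esx1 (1.79 ± 0.24), while Cdx2 did not pass.

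**Figure D3:**
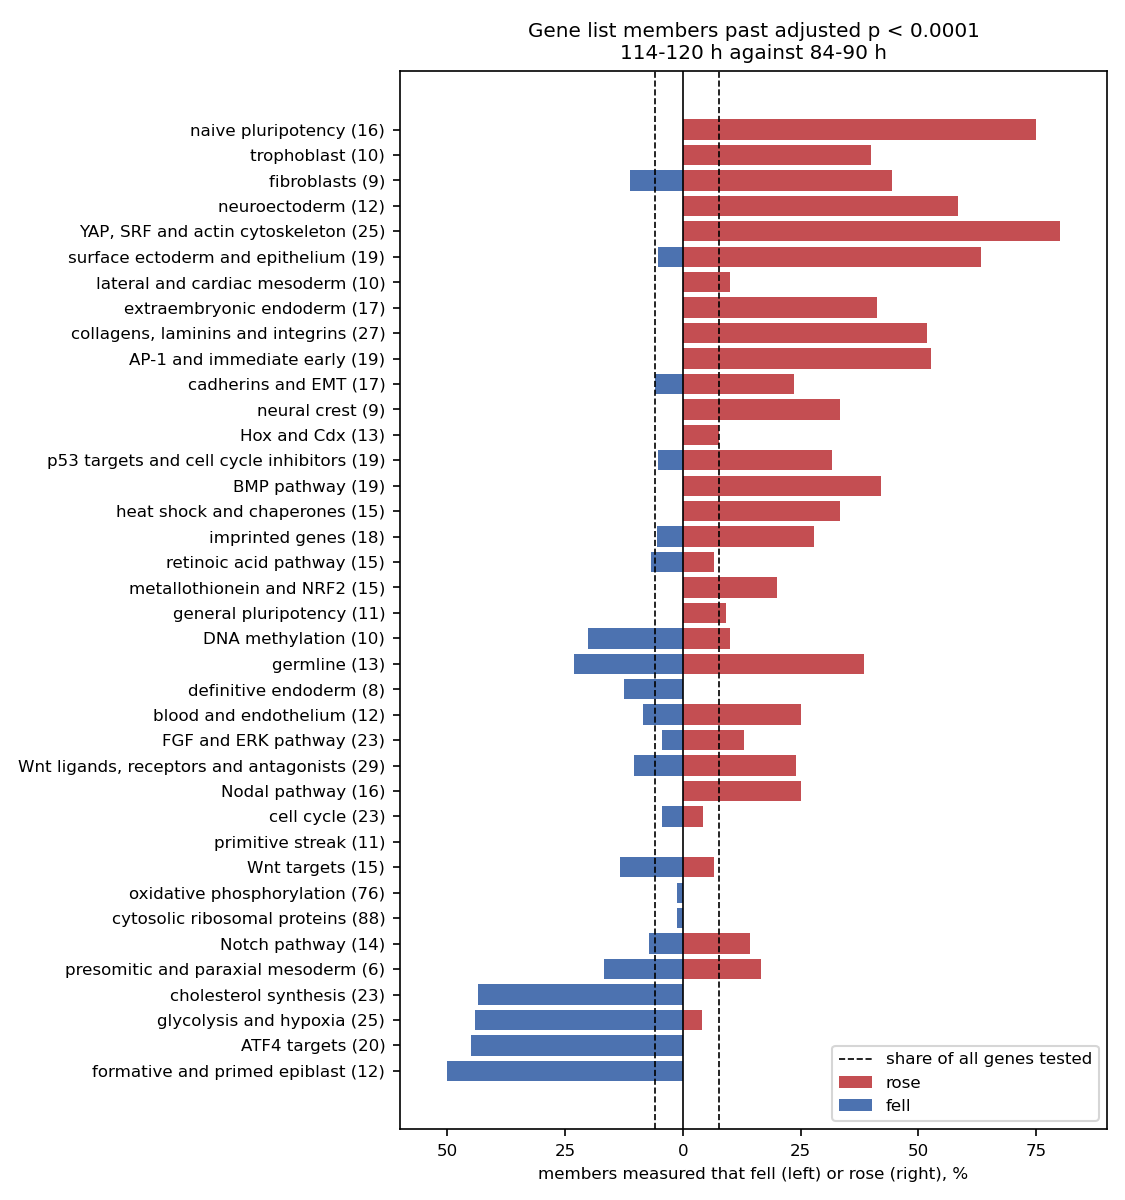
Share of the measured members of each gene list with at least 6 measured members that fell (blue, to the left) or rose (red, to the right), in percent. Lists are ordered by their median difference, the number of measured members is in brackets, and the dashed lines mark the shares of all genes tested, 5.89% and 7.72%. The list of YAP, SRF and actin genes has 20 of 25 members higher, and the formative list 6 of 12 lower.

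The list of YAP, SRF and actin cytoskeleton genes held the largest share of rises among the lists, with 20 of 25 measured members higher, 0 lower and a median of 1.25. YAP with its TEAD partners, and SRF, are transcriptional regulators that respond to cell spreading and actin assembly. Acta2, smooth muscle actin, stood at −0.31, 0.30, 1.55 and 1.5 log2 CPM early and at 5.87, 5.35, 6.25 and 6.15 late. Acta1, skeletal muscle actin, stood at 2.12, 1.59, 3.11 and 3.24 early and at 6.71, 6.38, 6.28 and 6.34 late, a rise of 3.91 ± 0.51 (limma adjusted p = 5.601e-07). In both genes the 90 h libraries were above the 84 h libraries and the windows were apart. S100a6, a calcium-binding partner of annexins, rose by 3.42 ± 0.25, the secreted YAP target Ccn1 by 1.5 ± 0.11, the actin-binding calponin gene Cnn2 by 1.46 ± 0.10 and the transgelin relative Tagln2 by 1.21 ± 0.11. The last 3 genes, the glycolytic genes Pgk1 and Ldha, the neighbours of Igf2, and Dab2 and Col4a1 are named outside the fixed rule, after their values were seen.

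The promoters of 4 of these genes are shown because the list is built around TEAD and SRF, whose usual motifs are GGAATG and the CArG box. The stretches are the 150 bases before the annotated start (RefSeq, GRCm38.p6), 5′ to 3′ on the strand of the gene. Capitals mark GGAATG on either strand and the strict CArG box CCWWWWWWGG, where W is A or T. Near matches with another base inside stay in lower case, such as ccctatatgg in Acta2. Acta2 lies at chr19:34255374-34255523 on the minus strand, Acta1 at chr8:123894776-123894925 on the minus strand, Ccn1 at chr3:145649986-145650135 on the minus strand and Cnn2 at chr10:79988450-79988599 on the plus strand.
Acta2: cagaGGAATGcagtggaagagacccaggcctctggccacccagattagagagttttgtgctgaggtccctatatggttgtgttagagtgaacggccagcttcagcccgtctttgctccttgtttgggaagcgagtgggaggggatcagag
Acta1: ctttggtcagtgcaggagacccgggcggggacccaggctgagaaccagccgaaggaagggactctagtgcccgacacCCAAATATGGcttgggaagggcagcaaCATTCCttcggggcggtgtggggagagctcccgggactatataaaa
Ccn1: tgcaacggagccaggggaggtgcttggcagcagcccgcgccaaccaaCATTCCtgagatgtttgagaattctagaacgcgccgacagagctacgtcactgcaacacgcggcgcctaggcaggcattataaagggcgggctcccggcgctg
Cnn2: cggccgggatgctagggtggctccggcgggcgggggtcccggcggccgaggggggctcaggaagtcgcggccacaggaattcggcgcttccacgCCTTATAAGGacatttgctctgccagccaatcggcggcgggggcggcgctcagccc

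The CArG box starts 73 bases before the start of Acta1 and 56 bases before that of Cnn2, and GGAATG starts 146 bases before the start of Acta2. In promoters of 300 bases (250 before and 50 after a start), 21 of the 25 list members had an entry, and 11 of them (52.4%) held GGAATG and 5 (23.8%) a CArG box. Over the 10686 tested genes with an entry the shares were 14.6% and 1.56%, and over all 32851 promoters given 14.7% and 1.63%. The list is built around these factors, so high shares in it were likely beforehand. Holders of each motif include members that did not pass. The CArG shares count the strict pattern only. Of the 840 genes that rose with an entry, 18.8% held GGAATG and 2.86% a CArG box, and of the 639 that fell, 16% and 1.72%. The AP-1 motif TGANTCA was held by 10.6% of the promoters of genes that rose, 4.38% of those that fell and 5.76% of those tested. The TATAAA motif was held by 12.9%, 7.98% and 8.46%. These are matches of letters and not measured binding sites.

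Of 27 collagen, laminin and integrin genes, which build or bind the extracellular matrix, 14 rose, 0 fell and 13 did not pass, with a median of 0.85. Col1a1, the main fibrillar collagen chain, stood at 3.23, 3.06, 3.58 and 3.74 log2 CPM early and at 5.69, 5.64, 5.94 and 5.86 late, a rise of 2.38 ± 0.17, and Col12a1 rose by 3.53 ± 0.49. Of 9 measured fibroblast markers 4 rose, 3 collagens and Postn, and Thy1, a surface protein of fibroblasts and other cells, fell from between 3.12 and 3.61 to between 0.79 and 1.85. Only 2 of the fibroblast markers rose without any 1 of the 84 h B, 90 h B, 114 h A and 120 h A libraries. The summed level of the 9 markers was 98.65 to 145.6 CPM early and 160.6 to 203.6 CPM late, and its part in the matrix result was not tested. Of 17 cadherin and mesenchymal transition genes 4 rose (2 without the 84 h A, 90 h A or 114 h A library) and Esrp1 fell.

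Several secreted signals and their antagonists rose at once. Among 29 genes of Wnt ligands, receptors and antagonists, 7 rose and 3 fell. Wnt7a, a ligand of neural and surface ectoderm, stood at −3.0, −2.94, −2.36 and −2.15 log2 CPM early and at 2.07, 2.43, 1.54 and 1.77 late, a rise of 4.57 ± 0.44. Its early libraries held few reads, 3 in the lowest. The antagonist genes Dkk1 and Frzb rose by 4.43 ± 0.62 and 3.07 ± 0.45, and the ligand genes Wnt7b and Wnt5a by 3.30 ± 0.23 and 2.46 ± 0.30. The receptor Fzd4 fell by 1.57 and the secreted antagonist Sfrp2 by 1.23 on the log2 scale. Of 15 Wnt target genes 1 rose, Dkk1, and 2 fell, of which 0 or 1 still passed on leaving out any library but 90 h A or 114 h A.

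In the BMP pathway 8 of 19 genes rose and 0 fell, with a median of 0.53. With a replicate block, voom precision weights or quantile normalization 1 member fell. The ligand gene Bmp2 stood at −3.0, −2.03, −1.54 and −0.88 log2 CPM early and at 2.39, 2.57, 2.67 and 2.67 late, a rise of 4.44 ± 0.47 (limma adjusted p = 1.488e-08). Bmp4 rose by 1.67 ± 0.19, the secreted BMP antagonist Noggin (Nog) by 3.89 ± 0.36 and the BMP target Id3 by 1.28 ± 0.16. Ligands, an antagonist and the target Id3 were thus higher in the same libraries. The other members that rose were Bmp7 (1.15 ± 0.18), Msx2 (1.87 ± 0.32), Smad7 (0.70 ± 0.13) and Tsc22d1 (0.79 ± 0.06). The 11 members that did not pass included the other measured Id genes, Msx1 and Smad6. Whether BMP targets rose as a whole was not tested. Of 23 genes of FGF and ERK signalling 3 rose and 1 fell (0 fell without any library but 84 h B or 114 h B, or after quantile normalization), and the ERK phosphatase gene Dusp5 rose most, by 2.19 ± 0.11. Of 19 AP-1 and immediate early genes, which respond within an hour to many signals, 10 rose and 0 fell, with a median of 0.81, and the AP-1 subunit gene Fosl2 rose by 1.79 ± 0.18.

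Of 25 measured glycolytic and hypoxia-responsive genes 11 fell, 1 rose and 13 did not pass, with a median of −0.43. Bnip3, a mitophagy gene induced by low oxygen, stood at 7.84, 7.87, 7.53 and 6.85 log2 CPM early and at 6.08, 6.42, 5.87 and 5.82 late, a difference of −1.47 ± 0.12 (limma adjusted p = 2.846e-10). Egln3, the oxygen-sensing hydroxylase that low oxygen induces, went from 6.48, 6.85, 5.86 and 5.73 to 4.62, 4.87, 4.81 and 4.72. In both genes the windows were apart and the 84 h libraries were above those of 90 h. The vasodilator peptide gene Adm had a difference of −2.12 ± 0.28, Ankrd37 −1.79 ± 0.21, the aldolase gene Aldoc −1.59 ± 0.13, the phosphoglycerate kinase gene Pgk1 −1.03 ± 0.10 and the lactate dehydrogenase gene Ldha −0.96 ± 0.10. Slc2a1, the basal glucose transporter, rose instead, from between 9.46 and 9.61 to between 9.96 and 10.58.

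Promoters of 3 genes that fell are shown for the core of the hypoxia response element, ACGTG, in capitals on either strand, as the 150 bases before the start (RefSeq, GRCm38.p6). Bnip3 lies at chr7:138909507-138909656 on the minus strand, Pgk1 at chrX:106186950-106187099 on the plus strand and Ldha, at the first of its 2 listed starts, at chr7:46845654-46845803 on the plus strand.
Bnip3: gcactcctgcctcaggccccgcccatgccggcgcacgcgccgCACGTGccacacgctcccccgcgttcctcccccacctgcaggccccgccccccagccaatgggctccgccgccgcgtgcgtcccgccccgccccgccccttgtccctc
Pgk1: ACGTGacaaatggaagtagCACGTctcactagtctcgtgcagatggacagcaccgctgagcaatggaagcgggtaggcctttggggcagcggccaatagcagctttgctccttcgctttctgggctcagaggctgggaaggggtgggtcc
Ldha: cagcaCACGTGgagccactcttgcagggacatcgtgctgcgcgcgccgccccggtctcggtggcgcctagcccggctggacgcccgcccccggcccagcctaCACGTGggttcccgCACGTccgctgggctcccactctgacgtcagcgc

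Of the 24 list members with a promoter entry 17 (70.8%) held ACGTG, beside 29.2% of the tested genes with an entry, 25.7% of those that rose and 32.7% of those that fell. The members that hold it include Slc2a1, which rose, and members that did not pass. The palindrome CACGTG holds ACGTG on both strands and is also the E-box letters of other factors. The CArG box and ACGTG were added to the motifs after the data had been seen.

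Other metabolic lists also had falls. Of 23 genes of cholesterol synthesis 10 fell and 0 rose, with a median of −0.43. The sterol sensor partner Insig1 stood at 6.22, 6.23, 6.04 and 5.36 log2 CPM early and at 4.64, 4.94, 4.57 and 4.49 late, a difference of −1.30 ± 0.12. Its windows did not overlap. The differences were −1.16 ± 0.14 and −0.77 ± 0.07 for the reductase genes Tm7sf2 and Dhcr7 and −0.81 ± 0.10 for the oxidase gene Msmo1. Of 20 targets of ATF4, the factor of the amino acid and stress response, 9 fell and 0 rose (5 without the 84 h A, 90 h A or 114 h A library). Vldlr had a difference of −2.02 ± 0.27, the stress factor gene Ddit3 −1.58 ± 0.18 and the glutathione-degrading enzyme gene Chac1 −1.36 ± 0.18. The 88 cytosolic ribosomal protein genes had a median of −0.28 with 1 call, and 76 oxidative phosphorylation genes a median of −0.22 with 1 call, both lower. Leaving out single libraries removed the ribosomal call for any library but 90 h B and the other without the 84 h B or 120 h A library, and 5 oxidative phosphorylation genes passed after quantile normalization. Those medians were −0.33 and −0.27 when values were scaled to total counted reads, where all genes had a median of −0.06.

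Among 18 measured imprinted genes 5 rose and 1 fell, with a median of 0.37. Beside Igf2, H19, the noncoding RNA transcribed from the other parental copy of the same domain, stood at 2.75, 3.57, 3.43 and 3.41 log2 CPM early and at 7.35, 6.79, 6.99 and 6.86 late, a rise of 3.71 ± 0.33. The paternally expressed genes Peg10 and Mest rose by 2.66 ± 0.12 and 1.27 ± 0.06, and Impact fell by 0.56 on the log2 scale. Igf2 and H19 thus rose in the same libraries, to levels with no overlap with the early ones.

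The domain of Igf2 and H19 lies at the distal end of chromosome 7. On GRCm38, Tnnt3 spans chr7:142498836-142516009, H19 chr7:142575529-142578143 and Igf2 chr7:142650766-142666816. Of the measured neighbours, the troponin gene Tnni2 and Lsp1, on the far side of Tnnt3, had differences of 5.10 ± 0.83 and 3.33 ± 0.54, calls that were lost for Tnni2 without the 84 h A, 90 h B, 114 h A, 120 h A or 120 h B library (highest limma adjusted p = 0.000295) and for Lsp1 without any library but 90 h B or 114 h B (0.000173). The early mean of Tnni2 was −4.77 log2 CPM, so the size of its rise depends on the offset as that of Tnnt3 does. Mrpl23, which lies between Tnnt3 and H19 and codes for a mitochondrial ribosomal protein, had a difference of −0.35 ± 0.13 and did not pass (limma adjusted p = 0.02245). Genes that rose therefore stood beside a gene that did not. Igf2os overlaps Igf2 on the other strand and rose by 3.73 ± 0.70, a call lost on leaving out any library but 84 h A (highest limma adjusted p = 0.00168). The library kit keeps strand, but whether the counting used it is not stated, so reads of Igf2os and Igf2 may not be separated.

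**Figure D4:**
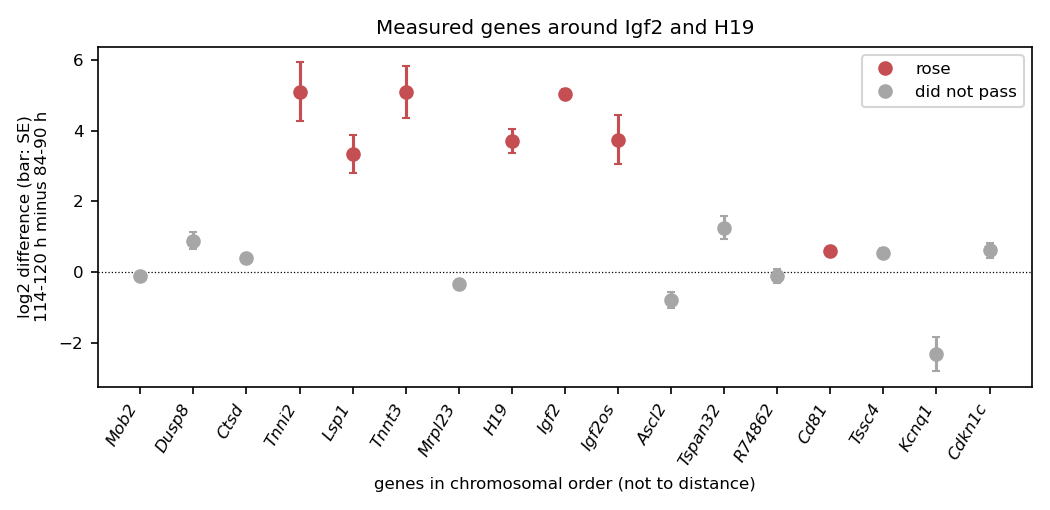
Log2 difference between the late and early windows, with its SE as a bar, of the measured genes around Igf2 and H19, in chromosomal order without scale. Red genes rose and grey genes did not pass. Tnni2, Lsp1, Tnnt3, H19, Igf2 and Igf2os stand between 3.33 and 5.10, and Mrpl23 among them stands at −0.35.

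Of 565 noncoding genes 18 rose and 19 fell (6.55% called, beside 14.4% of protein coding genes, a difference in shares that was not tested). H19 and Igf2os, given above, were among those that rose. Mir124a-1hg, a host transcript of the neuronal microRNA miR-124, stood at 0.80, 1.27, 0.42 and 0.58 log2 CPM early and at 2.88, 2.90, 3.06 and 3.59 late, and the host gene Mir22hg rose by 1.97 ± 0.18. C130071C03Rik, given above, and 4930426D05Rik (−2.88 ± 0.42) had the largest falls.

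The libraries at 96 h, 102 h and 108 h show the way between the windows. Taking the step from the early to the late mean as 100%, the genes that rose had covered a median of 34.8% at 96 h, 47.1% at 102 h and 81.2% at 108 h, and the genes that fell 31.2%, 43.2% and 63.9%. At 108 h, 364 of 1104 genes that rose and 191 of 842 that fell were already beyond their late mean. These shares describe genes chosen for their end points. Dusp5 averaged 4.0 at 90 h, 7.49 at 108 h and 5.71 at 120 h. Nab2, a corepressor of EGR factors, averaged 6.01 at 108 h beside 4.27 at 120 h, and the blood factor gene Tal2 4.21 beside 2.38. Klf15 and the glycogen-targeting gene Ppp1r3c dipped below both windows at 108 h, at 1.68 and −1.90 log2 CPM.

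Over the whole course the lists differed in how they came to the late window. The median naive gene stood 2.72 above its early window level at 0 h and 1.99 above it at 120 h, while the median formative gene stood 2.85 below it at 0 h and 0.66 below it at 120 h. The median cytoskeletal gene stood 1.74 below the early level at 0 h, 1.65 above it at 108 h and 1.10 above it at 120 h. Glycolytic and hypoxia genes were 0.01 above at 0 h, 0.92 below at 108 h and 0.58 below at 120 h. For only 2 of 25 cytoskeletal genes, and for 2 of 23 cholesterol genes, did the late window lie nearer to the 0 h level.

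**Figure D5:**
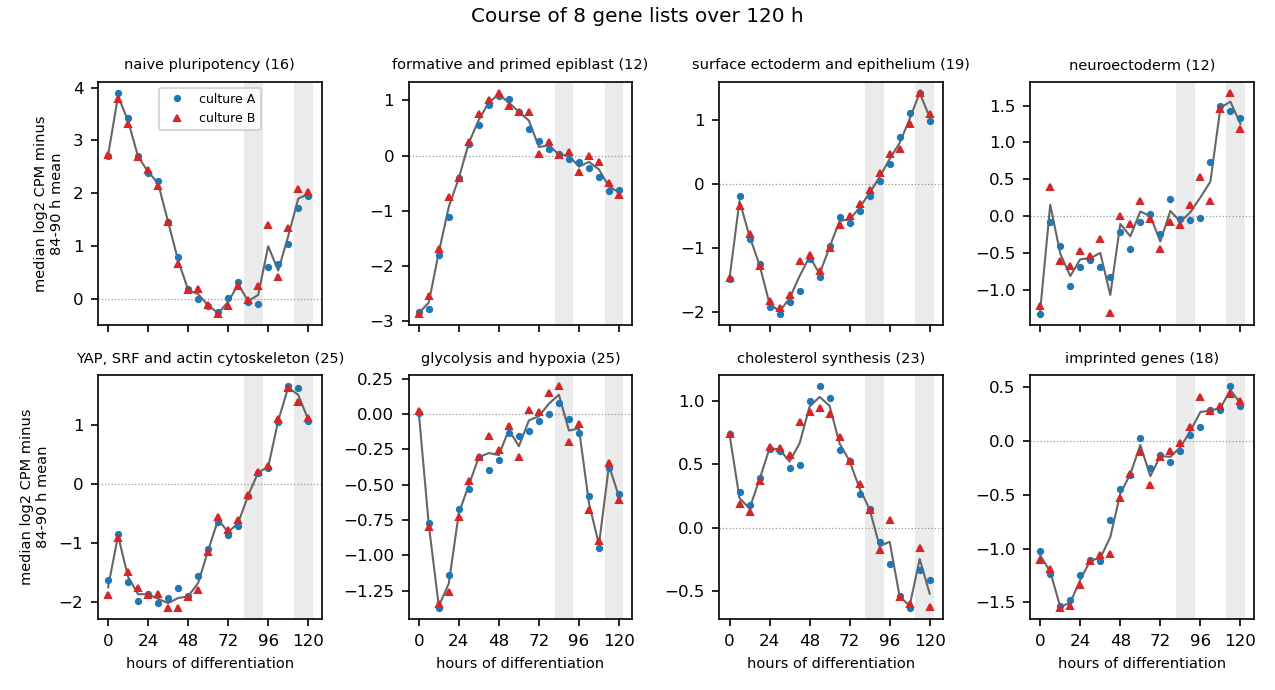
Median over the members of 8 gene lists of log2 CPM minus each gene's own early window mean, against hours of differentiation, with culture A as circles, culture B as triangles and their mean as a line. Grey bands mark the early and late windows, and the number of genes is in brackets. The naive list is 2.72 above its early level at 0 h and 1.99 above it at 120 h, and the cytoskeletal list peaks at 1.65 at 108 h.

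The step from 84 h to 114 h and the step from 90 h to 120 h, each over 30 h, were compared by an interaction term. On their own the steps gave 1107 calls (7.74% of the genes tested) and 609 (4.26%). For the difference between the steps 3 genes passed (0.021% of those tested; 1682 genes had an unadjusted p under 0.05). The carbonic anhydrase gene Car2 stood at 7.88, 7.75, 8.10 and 8.05 log2 CPM early and at 9.46, 9.68, 8.71 and 8.68 late, so it rose more over the first step, and the CBP-binding regulator gene Cited2 behaved alike. Naaladl1 fell over the first step, from 2.58 and 2.82 to 0.99 and 1.77, and stood higher after the second, going from 2.03 and 2.35 to 3.20 and 3.61. The change from the early to the late window differed between culture A and culture B for 0 genes. In this limma test 935 genes had an unadjusted p under 0.05 and 27 an adjusted p under 0.05. It used the 8 libraries alone, with the time points of a window as repeats and 4 residual degrees of freedom. Change within a window thus counted as error, so 0 calls do not show that the cultures changed alike.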

How the data were processed

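Per the labels and the methods, the authors prepared stranded poly-A libraries, used Trim Galore for trimming, TopHat2 for alignment (mm10) and HTSeq for counting on GENCODE vM2, retained genes above 1 CPM in at least 2 samples, normalized with edgeR and transformed with voom. Tool versions are not given in the sources used here. The deposited values are log2 CPM with an offset of 0.5 reads. They mapped to whole reads within 2.86e-08 of a read, which gave the read totals.

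Here limma 3.58.1 (R 4.3.3; lmFit, eBayes with trend) was fitted to the log2 values of all 42 libraries with a factor of 21 time points (21 residual degrees of freedom). The contrast was the mean of 114 h and 120 h minus the mean of 84 h and 90 h, with Benjamini-Hochberg adjustment over 14296 genes and an adjusted p of 0.0001 as threshold, that of the study. The script was tested on simulated data.

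The windows, gene lists and rules were chosen with earlier results of these data known. Named genes were the 12 largest calls in each direction with windows apart and a higher mean of at least 1 log2 CPM, up to 5 calls per list and direction with a mean of at least 0, a set of defining lineage genes, the 5 largest noncoding calls and 5 calls farthest outside both windows at 108 h. Not every gene that these rules give is described, and some are not reported here. Gene positions are from GENCODE vM21 on GRCm38 (14177 of 14296 genes matched by identifier), and promoters from RefSeq GRCm38.p6, matched by symbol. Python 3.11.15, numpy 2.4.6, pandas 2.3.3 and matplotlib 3.10.9 were used.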

Additional observations from a re-analysis of the deposited data

Results flagged for a closer look

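Of 268 windows of 4 libraries, 11 held a library that stood apart from the other 3 (Dixon's test at 95%), where chance flags about 5% of such groups. In the late window the 114 h B library was lowest for Klhl14 (−1.95 log2 CPM, the others −0.17 to 0.10) and for Thy1 (0.79, the others 1.70 to 1.85), and highest for Frzb (4.80, the others 4.06 to 4.15) and for Ankrd37 (2.03, the others 1.25 to 1.33). Tcl1 was low in the 114 h A library (3.41, the others 4.07 to 4.12), Wnt7b in the 120 h A library (2.44, the others 2.89 to 2.97) and Cryab in the 120 h B library (5.65, the others 5.75 to 5.77). In the early window the 84 h B library was high for Sncb (2.81, the others 2.51 to 2.52) and Rgs7bp (1.66, the others 1.32 to 1.38), the 90 h B library for Sfrp2 (4.97, the others 4.72 to 4.76), and the 90 h A library was low for Meis1 (−0.63, the others 0.17 to 0.26). All of these genes kept their calls without any single library.

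The step from 90 h to 120 h minus the step from 84 h to 114 h was −1.13 ± 0.14 for Car2, −1.06 ± 0.13 for Cited2 and 2.54 ± 0.31 for Naaladl1 on the log2 scale (limma adjusted p = 7.7e-05 for each). Fgf5 moved in opposite directions in both cultures, by 0.56 from 84 h to 114 h and by −0.23 from 90 h to 120 h. Its difference between the steps, −0.79, did not pass the threshold.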

How the results depend on the processing

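The 1946 calls became 2262 with a replicate block, 2213 with voom weights, 2196 after quantile normalization (1098 in each direction), 1931 against total counted reads and 1819 among better expressed genes, and every one of these is within 1.5 times. Letters A and B were not treated as pairs, since A's deviations correlated at 0.60 between 84 h and 90 h but at −0.40 between 90 h and 120 h. The main fit takes all libraries as independent, so with such correlations its SEs and p-values may be too small. The block moved no call of the 119 called genes named here. Of these 119 genes, 16 lost their call with the 8 libraries alone and 21 as 4 against 4. From 84 h to 114 h alone 21 lost it and from 90 h to 120 h alone 44, and more did without a whole culture. The counts depended more on which libraries set the error. With the 8 libraries alone 949 genes passed (607 higher, 342 lower), or 800 as 4 against 4 (514 and 286). From 84 h to 114 h alone 1107 passed (660 and 447), and from 90 h to 120 h alone 609 (389 and 220). Leaving out 1 library gave 1402 to 1613 calls and leaving out a whole culture 636 to 690, with 366 to 970 higher and 220 to 649 lower over both kinds. At an adjusted p of 0.05 there were 6476 (3362 and 3114), 141 for the difference between steps and 27 for that between cultures, and a 2-fold minimum left 936 (524 and 412). Fewer samples or another threshold are built into these settings.

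Among the genes named here, directions turned only for some that had not passed. Nanog was −0.027 after quantile normalization and −0.049 from 90 h to 120 h, where Fgf5 was −0.23, Foxa2 −0.18 and Naaladl1 1.22. Naaladl1 was also 0.056 after quantile normalization, 0.0038 as log2(CPM + 1) and −0.25 to 0.14 over the fits without single libraries or a culture. Foxa2 ranged from −0.12 to 0.30 and Gata4 from −0.16 to 0.016 over the same fits. Depth limits genes such as Ccdc80 and Postn, with 0 to 4 reads in an early library.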

Other observations

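Other gene groups moved between the same windows. Of 19 p53 targets and cell cycle inhibitors 6 rose and 1 fell, with a median difference of 0.54 on the log2 scale. Cdkn1a (p21), an inhibitor of cyclin-dependent kinases, stood at 5.96, 5.83, 5.48 and 5.97 log2 CPM early and at 7.52, 7.49, 7.13 and 7.11 late, a rise of 1.5 ± 0.19. The p53 ligase gene Mdm2 rose by 1.32 ± 0.12, Phlda3 by 1.34 ± 0.16 and the inhibitor gene Cdkn2b by 1.97 ± 0.27. Of 23 cell cycle genes 1 rose (0 without any library but 90 h B, after quantile normalization or after scaling to total counted reads) and 1 fell (3 after quantile normalization and 2 after scaling to total counted reads), with a median of −0.06. Of 15 heat shock and chaperone genes 5 rose and 0 fell, led by Cryab, and the small heat shock protein gene Hspb1 rose by 1.51 ± 0.17. Of 15 metallothionein and NRF2 target genes 3 rose and 0 fell, with the quinone reductase gene Nqo1 at 1.45 ± 0.14.

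Of 13 germline genes 5 rose and 3 fell (1 without the 84 h B or 90 h A library). The members that rose included Dppa3, Prdm14 and Tfap2c, which other lists hold too. Of 16 genes of the Nodal pathway 4 rose and 0 fell, and 2 rose after quantile normalization, after scaling to total counted reads, or without the 84 h B, 90 h B, 114 h A, 114 h B or 120 h A library. Of 15 retinoic acid genes 1 rose and 1 fell, and 4 rose with voom precision weights. Of 14 Notch genes 2 rose and 1 fell (2 fell with a replicate block), and of 10 DNA methylation genes 1 rose and 2 fell. Of 10 macrophage and leukocyte markers 2 were measured and 1 rose, and of 12 markers of 2-cell-like cells 2 were measured and 0 passed.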
